A study of Rattus norvegicus with 21 samples.

Results

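The pituitary adenomas of MENX rats were split here by how much Cyp11a1 mRNA they contained, and the lesions rich in this transcript were set against those poor in it. Cyp11a1 encodes P450scc, the mitochondrial enzyme that cuts the side chain of cholesterol. Lesions sharing the number before the dot in their source name were read as lesions of 1 rat and averaged. A number was called high when the mean of its Cyp11a1 probe set was 9 or more on the log2 scale, and low when that mean was under 8. This gave 4 high numbers (7 arrays) and 4 low numbers (6 arrays) among the 9 lesion numbers (16 arrays), while 1 number with 3 lesions lay between the cuts and was left out of the test. The whole series held 14 numbers on 21 arrays, of which 5 wild-type pituitaries served as reference outside that test. Since a measured value formed the groups, the Cyp11a1 levels are a description and carry no test.

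All lesions came from rats homozygous for the mutant Cdkn1b allele (p27Kip1) that causes MENX, on the strain Sprague–Dawley white eye/Wistar–Kyoto that the wild-type rats shared, so high and low groups carried the same mutation. The high numbers were a female of 11 months (high 1, 2 lesions), a male of 10 months (high 2, 3 lesions), a female of 7 months (high 3, 1 lesion) and a female of 12 months (high 4, 1 lesion). The low numbers were a male of 10 months (low 1, 2 lesions), a female of 8 months (low 2, 1 lesion) and females of 12 months with 1 lesion (low 3) and with 2 lesions (low 4). The left-out number was a male of 12 months, and the wild-type rats were 2 females and 3 males of 6 months. Each group thus held 3 females and 1 male, with a mean age of 10 months in the high and 10.5 months in the low group. The sample numbers began with 08 in 3 high and 1 low number and with 09 in 1 high and 3 low numbers, and this prefix, whose meaning the labels do not give, is compared beside the results, with 1 number on one side within each prefix. The study describes the tissue as macrodissected lesions of glands with large tumors, so other cells of the gland could be present in each sample.

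P450scc performs the first step of steroid synthesis, turning cholesterol into pregnenolone, and is best known from the adrenal cortex, the gonads and the placenta. The StAR protein brings cholesterol to the inner mitochondrial membrane, and adrenodoxin (Fdx1) with its reductase (Fdxr) passes electrons to the enzyme. The nuclear receptor SF-1 (Nr5a1) is a main activator of Cyp11a1 in steroidogenic cells, where cyclic AMP raises its transcription, and SF-1 is also the lineage factor of the pituitary gonadotrophs, the cells from which these adenomas mainly derive.

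To show what lies upstream of the gene that formed the groups, the 250 bases before its start are given from RefSeq (GRCr8, plus strand), chr8:67318415-67318664. They held neither the SF-1 site CAAGGNCA nor the cyclic AMP response element TGACGTCA, on either strand, so that no letters are in capitals. Only these exact spellings were searched. Sites that differ from them were not counted, so the absence of a match does not show that SF-1 has no site here.

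Cyp11a1: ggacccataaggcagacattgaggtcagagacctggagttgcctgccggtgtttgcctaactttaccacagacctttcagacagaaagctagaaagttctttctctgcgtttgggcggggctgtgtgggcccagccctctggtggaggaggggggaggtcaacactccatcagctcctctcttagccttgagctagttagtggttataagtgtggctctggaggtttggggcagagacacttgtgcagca

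Among the genes named below, 2 kallikreins (Klk1c10 and Klk1c8) and Pm20d2 held the SF-1 site within 250 bases before their start (capitals), of 11 genes higher in the high group for which a promoter was at hand. Over the 300-base windows of all 33469 RefSeq promoters the share was 6.55%, and it was 0 of 14 among the named lower genes with a promoter at hand. The cyclic AMP response element, a palindrome, was in 1.83% of all windows, in 0 of the 11 and in 1 of the 14 (Atad2b). The kallikrein promoters are copies of each other, with 203 of 215 bases identical (94.4%) at an offset of 35 bases, so their sites are not independent. They lie at chr1:103543587-103543836 (minus strand) and chr1:103684043-103684292 (plus strand), and that of Pm20d2 at chr5:52382533-52382782 (minus strand).

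Klk1c10: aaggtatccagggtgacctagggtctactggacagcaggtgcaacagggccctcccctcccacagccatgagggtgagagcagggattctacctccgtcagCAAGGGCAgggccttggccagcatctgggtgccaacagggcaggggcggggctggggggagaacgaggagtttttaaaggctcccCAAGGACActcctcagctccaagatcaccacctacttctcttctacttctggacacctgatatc

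Klk1c8: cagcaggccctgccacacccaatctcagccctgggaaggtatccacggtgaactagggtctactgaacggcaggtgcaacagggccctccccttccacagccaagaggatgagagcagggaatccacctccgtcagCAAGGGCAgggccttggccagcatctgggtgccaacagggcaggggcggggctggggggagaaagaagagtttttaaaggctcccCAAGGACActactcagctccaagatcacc

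Pm20d2: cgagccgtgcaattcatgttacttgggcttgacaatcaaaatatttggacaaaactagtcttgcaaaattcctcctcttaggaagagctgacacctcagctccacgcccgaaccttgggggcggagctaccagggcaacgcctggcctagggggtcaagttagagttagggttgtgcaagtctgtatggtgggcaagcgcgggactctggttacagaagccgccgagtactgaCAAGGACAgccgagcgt

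One microRNA locus, Mir29c (chr13:109099359-109099446, plus strand), was among the genes lower in the high group. Its mature RNAs are shown with the seed, bases 2 to 8, in capitals. The probe set reads the locus and not the processed microRNA.

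rno-miR-29c-5p: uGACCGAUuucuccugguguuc

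rno-miR-29c-3p: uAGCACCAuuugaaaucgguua

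Cyp11a1 ranged widely among the lesions, also within 1 rat. In the high group the lesions were at 9.93 and 9.52 (high 1), at 12.85, 9.09 and 9.31 (high 2), at 10.61 (high 3) and at 10.04 (high 4), all on the log2 scale. In the low group they were at 6.22 and 8.77 (low 1), 7.50 (low 2), 5.89 (low 3), and 7.25 and 7.77 (low 4). The left-out number had 8.85, 8.29 and 7.87, and the wild-type pituitaries ran from 4.97 to 5.47. Every lesion thus lay above every wild-type pituitary, low 3 by the least, and 1 lesion of low 1 lay above the low cut by its own value. The mean level was 10.20 ± 0.39 in the high group (SD, n = 4), 7.10 ± 0.81 in the low group (SD, n = 4) and 5.29 ± 0.21 in wild type (SD, n = 5). High and low numbers differed 8.58-fold, low numbers lay 3.52-fold and high numbers 30.2-fold above wild type, and the left-out number 8.28-fold. Just inside the cuts were high 1 at 9.73 and low 4 at 7.51, and between them the left-out number stood at 8.34. The SD of lesions within a number was 1.36 (7 degrees of freedom), against 1.65 for the SD of the 9 number means, so an average hides lesions that differ.

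**Figure D1:**
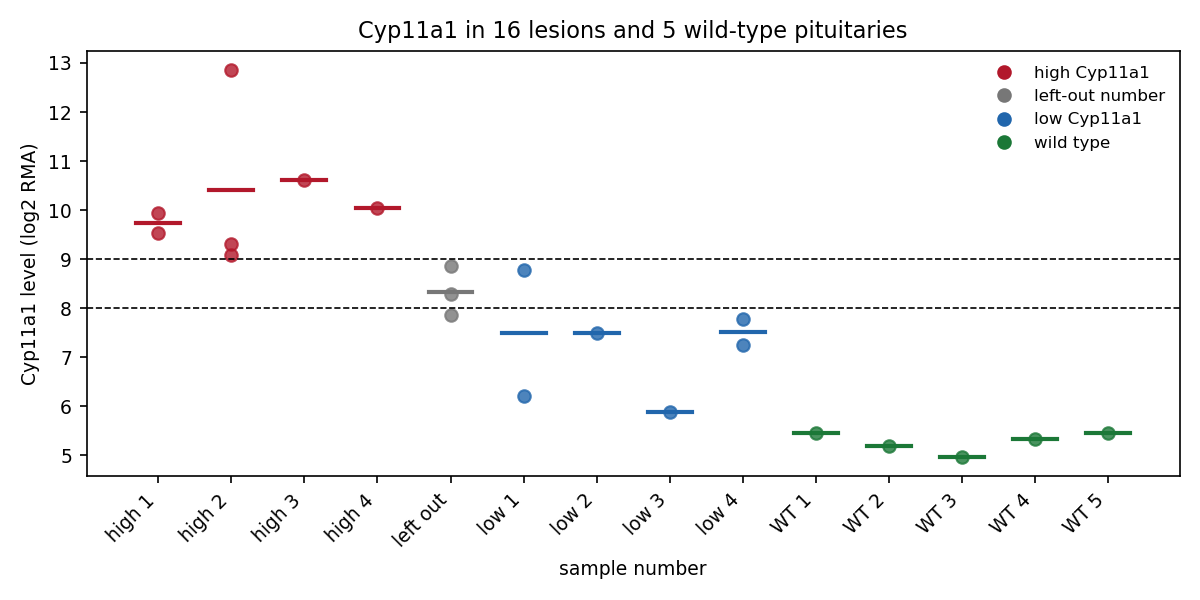
Cyp11a1 level (log2 RMA value) of each array, by sample number, with a point per array, a bar at the mean of the number and dashed lines at the cuts of 8 and 9. The 3 lesions of high 2 span 9.09 to 12.85, low 1 has a lesion on each side of the low cut, and the 5 wild-type pituitaries sit between 4.97 and 5.47.

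Against this 8.58-fold difference in Cyp11a1, no other probe set passed the test between the groups. Of 29213 probe sets tested with limma, 0 had an adjusted p under 0.05 (0%), and the smallest adjusted p was 0.911. The median difference of all probe sets was -0.0017, and its 5th and 95th percentiles were -0.32 and 0.24 (high minus low, log2), with 62 probe sets at 1 or more in either direction. At an unadjusted p under 0.05 there were 514 higher (1.76%) and 981 lower (3.36%) in the high group, together 1495 (5.12%). All 4 high values lay above all 4 low values in 303 probe sets (1.04%) and below them in 451 (1.54%). The 95% interval of a difference reached 0.26 to either side in the median probe set and 0.68 at the 95th percentile (log2), before any adjustment, which bounds what 4 numbers a group could resolve. In tissue, fewer cells of a type and less RNA per cell cannot be told apart. The genes named below as higher or lower are therefore values ranked by p-value and none is a call.

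The gene with the smallest p-value was Cyp1b1 (10887947), a cytochrome P450 that oxidises estrogens and many foreign compounds. Its level was 7.55, 8.32, 8.00 and 8.48 in high 1 to 4 and 6.54, 5.69, 5.31 and 6.32 in low 1 to 4. The groups did not overlap, with a mean of 8.09 ± 0.41 against 5.96 ± 0.56 (SD, n = 4 each). The difference was 2.12 on the log2 scale (standard error 0.29), 4.36-fold, with p = 4.79e-05 and an adjusted p of 0.911 from limma. The wild-type pituitaries, at 5.61 ± 0.13 (SD, n = 5), lay with the low group, and low 2 and 3 were within or under the wild-type range of 5.46 to 5.77. The left-out number, with intermediate Cyp11a1, stood at 8.45, close to the top of the high group. Within prefix 08 the difference was 1.42 and within prefix 09 it was 2.70. In the fit that took in all 14 values in 4 groups, Cyp1b1 alone was called (adjusted p = 0.0252 from limma). That fit shares 1 spread with the wild-type pituitaries, whose SD of 0.13 was below those of the lesion groups, so its smaller error rests in part on wild type.

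Between lesions of the same rat, the one with more Cyp11a1 also had more Cyp1b1 in 7 of 9 pairs, which share lesions. The pairs differed in Cyp11a1 by 0.21 to 3.76. Such counts were made for the named genes and not over all probe sets, so here and below they are a description and no test. In high 2, the lesion with Cyp11a1 at 12.85 had Cyp1b1 at 10.85, while the other lesions, at 9.09 and 9.31, had 7.30 and 6.81. In low 1, the lesion at 8.77 had 6.97 and the lesion at 6.22 had 6.10. In high 1 the values were 7.96 and 7.14, and in low 4 the lesion richer in Cyp11a1 had 6.42 against 6.22. In the left-out number, Cyp1b1 was at 8.41, 8.67 and 8.29 in the lesions with Cyp11a1 at 8.85, 8.29 and 7.87, so the order was not the same. Over the 9 numbers Pearson's r between the genes was 0.86, as a description that shares the values which formed the groups.

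**Figure D2:**
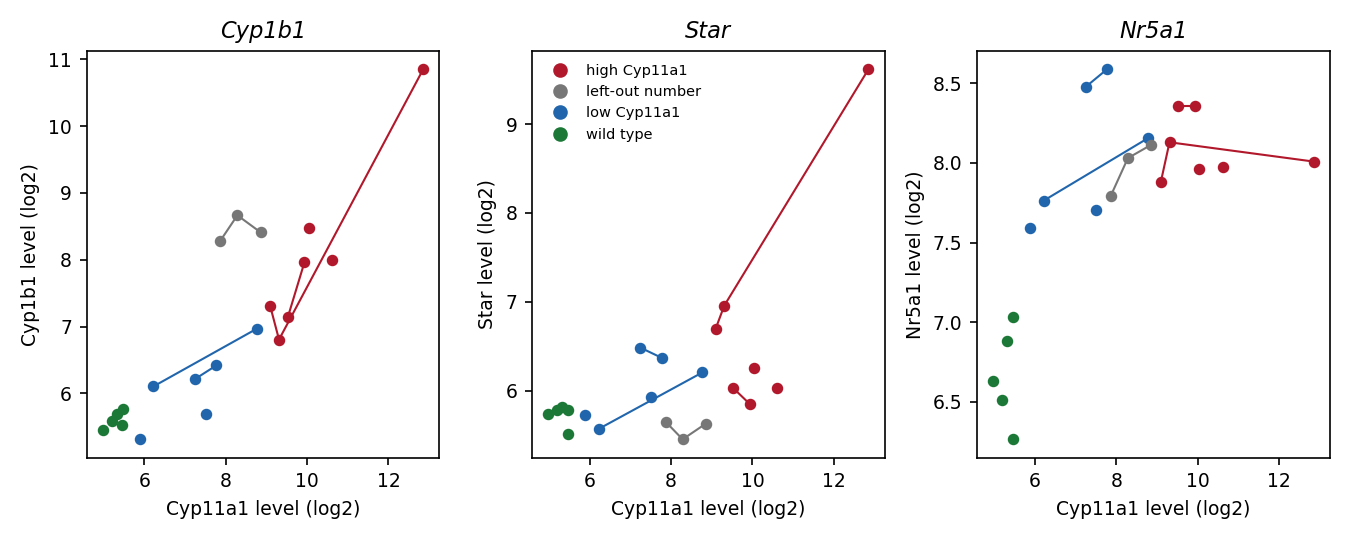
Level of Cyp1b1, Star and Nr5a1 against that of Cyp11a1 (all log2), a point per array, with lines joining the lesions of a number and colours for the groups. The lesion of high 2 at 12.85 on the Cyp11a1 axis has Cyp1b1 at 10.85 and Star at 9.62, while Nr5a1 lies between 7.59 and 8.59 in all lesions.

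Of the other genes higher in the high group, Cdhr1 (10790563), a photoreceptor cadherin, had the next largest difference. Its values were 8.84, 9.31, 9.34 and 9.25 in high 1 to 4 and 7.42, 8.74, 7.53 and 7.68 in low 1 to 4, a difference of 1.34 (p = 0.000864, adjusted p = 0.911 from limma). Low 2 came close to the high group, and the mean of the wild-type pituitaries, which ran from 7.81 to 8.69, lay between the group means at 8.27. Klk1c8 (10706468) and Klk1c10 (10721289), of the tissue kallikrein family of secreted serine proteases, stood at 7.67, 6.71, 6.18 and 6.38 against 5.02, 5.77, 5.34 and 5.71, and at 5.95, 6.59, 5.62 and 5.90 against 4.80, 5.37, 5.23 and 5.16. Their differences were 1.28 (p = 0.0028) and 0.88 (p = 0.00206), with no overlap and both adjusted p-values at 0.911. These genes are near copies whose probes can read each other's mRNA, and the other probe sets assigned to Klk1c10 differed by -0.04 and -0.03. The letters shown above for their promoters are those of a shared family, and the wild-type levels of both lay below the low mean.

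A pair of genes of peptide secretion stood in opposite directions. Pcsk2 (10840332), the prohormone convertase PC2 that cuts hormone precursors in secretory granules, was at 10.38, 10.26, 10.21 and 10.04 in high 1 to 4 and at 9.46, 9.39, 9.81 and 9.87 in low 1 to 4, 0.59 higher (p = 0.00151). Cadps (10779390), which primes dense-core vesicles for release, was at 8.76, 8.58, 9.12 and 8.82 against 9.46, 9.28, 9.56 and 9.98, a difference of -0.75 (p = 0.00138). The groups did not overlap for either gene, and the adjusted p was 0.911 for both. Wild-type values ran from 8.73 to 9.93 for Pcsk2 and from 8.63 to 9.79 for Cadps. Both genes belong to a list of 20 measured secretory granule genes, of which 15 were above and 5 below 0 with a median of 0.07. Pcsk2 and Cadps alone in that list had an unadjusted p under 0.05, beside 5.12% of all probe sets. The left-out number had Pcsk2 at 9.29, below every high and low value, and Cadps at 9.00, between the means. Cacna1e (10768765), the pore subunit of the R-type calcium channel found in endocrine cells, was at 5.97 ± 0.08 against 6.45 ± 0.17 (SD, n = 4 each). Its difference was -0.48 (p = 0.000968).

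The remaining genes at the top of the higher ranking were Sh3bgrl3 (0.94), Pm20d2 (0.56), Myl9 (0.49), Slc25a10 (0.45), Rhbdl3 (0.44), Septin6 (0.40), Ccnjl (0.40), Mdk (0.36), Dbr1 (0.34) and Bsg (0.31), with p-values from 0.00113 to 0.00394. Myl9 is the regulatory light chain of smooth muscle myosin, Mdk the growth factor midkine, Slc25a10 the mitochondrial dicarboxylate carrier, Bsg basigin and Dbr1 the enzyme that opens intron lariats. Sh3bgrl3 rested in part on high 2 and 3, at 9.81 each, against 9.16 and 8.78 in high 1 and 4 and 8.10 to 8.69 in the low group. Within prefix 09 its difference was 0.22 and within prefix 08 it was 1.5.

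In the lower ranking, Srsf7 (an SR splicing factor), Pnisr, Akap8l and Leng8 had differences of -0.42, -0.50, -0.43 and -0.45. In the same order, they were -0.46, -0.47, -0.35 and -0.46 within prefix 08 and -0.18, -0.22, -0.47 and -0.18 within prefix 09. These genes varied more among the wild-type pituitaries, from 9.56 to 10.82, 8.38 to 9.92, 7.66 to 9.53 and 6.48 to 7.81. Ermard (-0.50), Ppp1r12b (-0.46), Wasl (-0.38), Myt1 (-0.36), Mcf2l (-0.33), Atad2b (-0.33), Hexd (-0.49) and Mss51 (-0.51) completed the ranking, whose p-values ran from 0.000582 to 0.00388. Ppp1r12b is a subunit of myosin phosphatase, Wasl is N-WASP, which starts actin branching, and Myt1 is a zinc finger factor of neural and endocrine differentiation. High 4 was the high number nearest to the low group in Pnisr (9.06 against a lowest low value of 9.11), Leng8 (7.12 against 7.17) and Hexd (7.25 against 7.35). A second probe set of Leng8 gave -0.40 (p = 0.0118 from limma). Within prefix 08 and 09, Hexd differed by -0.59 and -0.14, and Mss51 by -0.14 and -0.54.

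Mir29c (10766882) was at 4.97, 5.20, 5.32 and 5.31 in high 1 to 4, at 5.62, 5.86, 6.00 and 5.53 in low 1 to 4 and at 5.59 in the left-out number. The difference was -0.55 (standard error 0.13, p = 0.00193, adjusted p = 0.911 from limma). The wild-type pituitaries, from 5.97 to 7.38, lay above every lesion number other than low 3. This is the locus of the mature RNAs printed above, which were not measured themselves.

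The left-out number did not enter the fit and could be placed beside it. It lay between the group means for 10 of the 15 higher and 15 of the 15 lower genes, beside 23.9% of all probe sets. Genes with a large distance between the means leave more room between them, so these shares are no test. The wild-type mean was nearer to the low than to the high mean for 12 of the 15 higher and 14 of the 15 lower genes. This share was not counted over all probe sets, so it does not say whether low lesions are more like wild type. Lesions of 1 rat did not follow the rankings evenly. In 1 pair of high 2 that differed by 3.76 in Cyp11a1, 11 of the 15 higher and 9 of the 15 lower genes differed the same way as between the groups. In low 1, with a difference of 2.55, they were 8 and 6 of 15, and in the left-out number 0 and 7 of 15 in the pair that differed by 0.57, 6 and 14 in that of 0.99, and 12 and 14 in that of 0.42. Over all 9 pairs the counts ran from 0 to 12 and from 6 to 14 of 15.

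**Figure D3:**
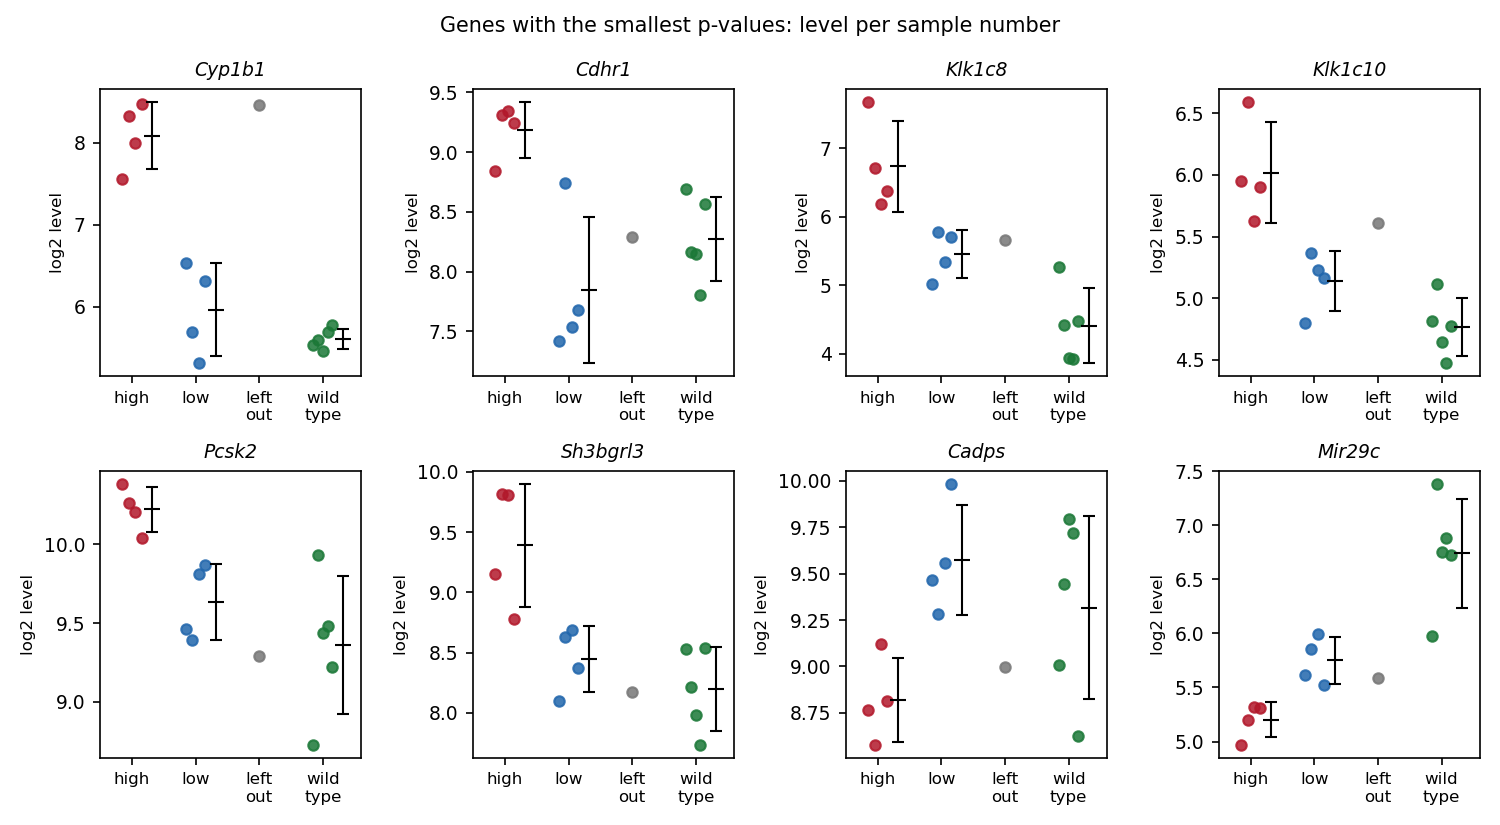
Log2 level per sample number of 8 genes from the rankings by p-value, with a point per number, and the mean and SD of each group beside its points. High and low points do not overlap in any panel, and the left-out number is at 8.45 for Cyp1b1, among the high values, but at 9.29 for Pcsk2, below both groups.

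The levels of genes that work beside Cyp11a1 in steroid synthesis overlapped between the groups. Star (10792251), which delivers cholesterol to P450scc, was at 5.94, 7.76, 6.03 and 6.25 in high 1 to 4 and at 5.89, 5.94, 5.73 and 6.43 in low 1 to 4. Only high 2 stood clear of the low group, and the difference was 0.50 (95% interval -0.35 to 1.35, p = 0.215). Fdx1, the electron carrier, differed by 0.20 (-0.33 to 0.73) and Fdxr by 0.07 (-0.47 to 0.62). Scarb1, the receptor that takes up cholesterol from HDL, was at 11.65, 11.48, 10.00 and 11.15 against 11.50, 10.20, 9.02 and 10.11, with a difference of 0.86 (-0.31 to 2.04, p = 0.130). It turned to -0.45 within prefix 08 and was 1.38 within prefix 09. Fdx1 turned likewise, to -0.33 within prefix 08. All 8 high and low values of Scarb1 lay above the wild-type range of 7.19 to 7.95.

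Further along the pathway, Cyp11b2 (10904568), aldosterone synthase, was at 10.34, 8.95, 7.06 and 6.62 in high 1 to 4 and at 6.85, 7.46, 6.33 and 7.73 in low 1 to 4. High 1 and 2 were above all low values and high 3 and 4 were not, and the difference was 1.15 (-0.55 to 2.86, p = 0.160). It was 1.94 within prefix 08 and -0.55 within prefix 09. Cyp11b1, 11-beta-hydroxylase, differed by -0.32 (-0.78 to 0.14). These genes are close copies, and the arrays could not be checked for probes that read both. Of the 20 steroid synthesis enzymes measured, 0 were called, and 1 had an unadjusted p under 0.05, namely Hsd11b1 (0.70 higher, p = 0.0266), which regenerates active glucocorticoids (p = 0.0863 with the prefix as a block). Their median difference was 0.12, against -0.0017 over all probe sets. Between lesions of the same rat, the one with more Cyp11a1 had more Scarb1 in 9 of 9 pairs, more Cyp11b2 in 8, more Fdx1 and Fdxr in 6 each and more Star in 5, again over pairs that share lesions. How many of all probe sets reach such counts was not determined.

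Nr5a1, which drives Cyp11a1 in steroidogenic cells, overlapped between the groups. The study reports less Cyp11a1 mRNA after Nr5a1 silencing in a mouse gonadotroph line. An SF-1 inhibitor also lowered it, in that line and in primary rat adenoma cells. The authors call this indirect evidence for a part of SF-1. The array reads Nr5a1 mRNA and not SF-1 activity, which was not tested here. Nr5a1 (10844858, SF-1) was at 8.36, 8.01, 7.97 and 7.96 in high 1 to 4 and at 7.96, 7.70, 7.59 and 8.53 in low 1 to 4. The highest number was low 4, and the difference was 0.13 (95% interval -0.32 to 0.58, p = 0.537 from limma). All lesion numbers were above the wild-type range of 6.26 to 7.03. Between lesions of a rat, Nr5a1 was higher in the lesion with more Cyp11a1 in 7 of 9 pairs, by at most 0.39. Nr0b1 (DAX1), a corepressor of SF-1, differed by 0.31 (-0.42 to 1.03), by 1.04 within prefix 08 and by 0.33 within prefix 09. With the prefix as a block its difference was 0.68 (unadjusted p = 0.0398 from limma), and it followed Cyp11a1 in 4 of the 9 pairs. Of the 25 measured genes on a list of factors reported to act on Cyp11a1 transcription, 0 were called and 0 had an unadjusted p under 0.05, with a median of 0.01. A further list, chosen on these samples, held SF-1 targets that the study names, together with Fgf13, Col18a1 and the SF-1 co-activator gene Cited2. For its 11 measured genes the counts were also 0 and 0, with 6 above and 5 below 0. Their median was 0.08, which was -0.22 within prefix 08 and 0.59 within prefix 09.

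**Figure D4:**
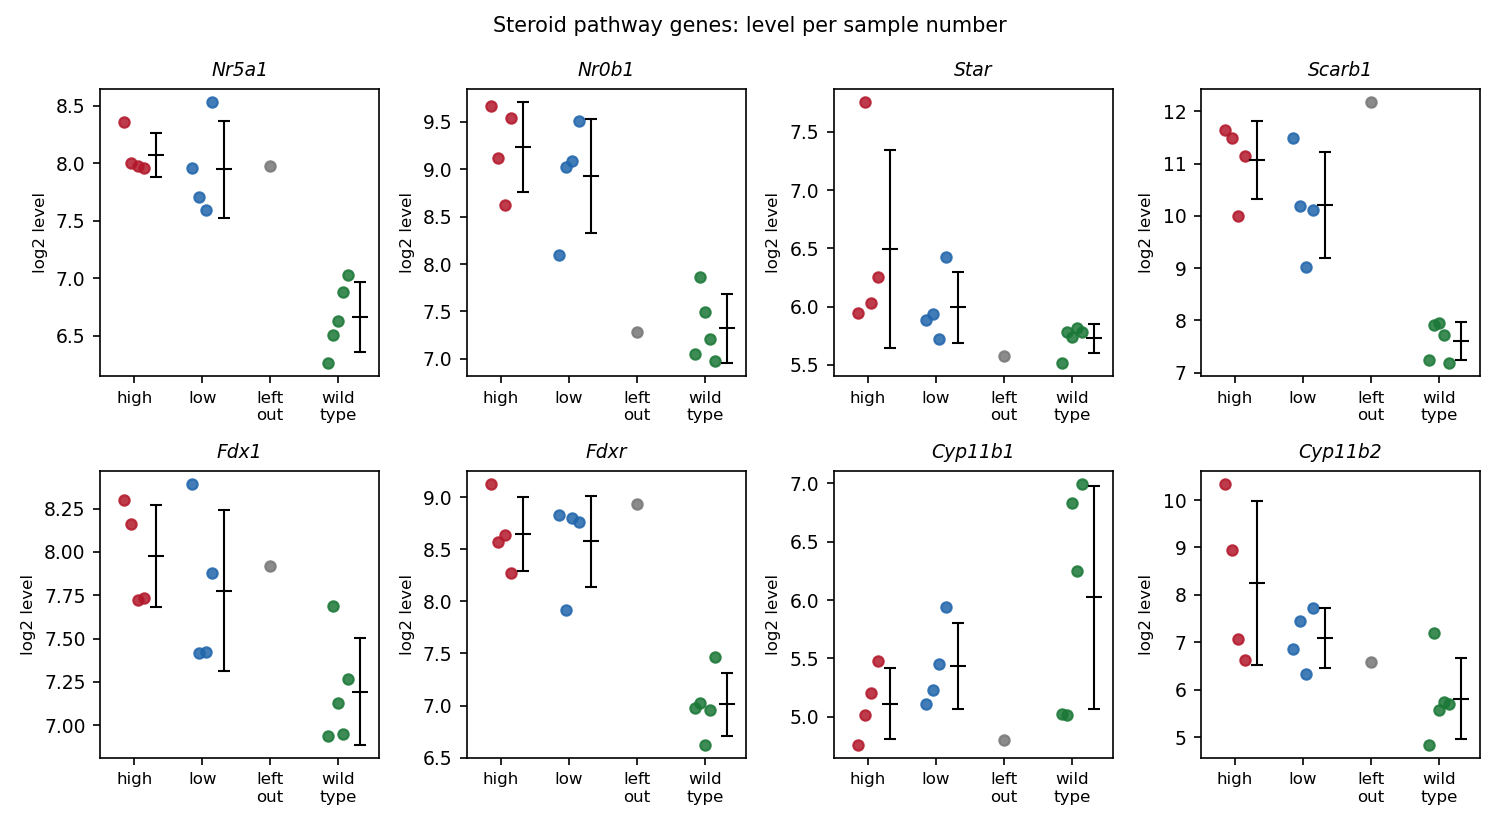
Log2 level per sample number of Nr5a1, Nr0b1 and 6 genes of cholesterol uptake and steroid synthesis, with a point per number, and the mean and SD of each group beside its points. The high and low points overlap in every panel, while the lesions of both groups lie above wild type for Nr5a1 and Scarb1.

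Genes of cholesterol supply gave no call. Of 19 measured cholesterol synthesis genes, 16 were above and 3 below 0 with a median of 0.21, and 1 had an unadjusted p under 0.05, Nsdhl, a sterol dehydrogenase (0.31, p = 0.0427). The median turned to -0.08 within prefix 08. Of 20 genes of cholesterol delivery, 11 were above 0 and 0 passed an unadjusted p of 0.05. Among 27 cyclic AMP signalling genes, 0 were called, Pde3a was 0.39 higher (p = 0.0364) and Akap13 0.33 lower on the log2 scale (-0.33, p = 0.00541).

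The neighbours of Cyp11a1 on its chromosome were read beside it. Cyp11a1 lies on chromosome 8 from 67318665 to 67330196 (GRCr8), and its 4 nearest measured protein-coding genes on each side, chosen by position after the other results were known, lie 1.32 to 327 kb away. Ccdc33, 1.32 kb beyond its end, was at 5.86 ± 0.05 in the high and 5.76 ± 0.05 in the low group (SD, n = 4 each). Its difference was 0.10 (p = 0.183). Over the 8 neighbours the differences ran from -0.15 to 0.17, and 0 had an unadjusted p under 0.05.

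Cell cycle genes were the list with the highest median. All 32 measured genes of G2 and mitosis were above 0, with a median difference of 0.48, and 0 were called. Unadjusted p-values from limma were under 0.05 for 3 of them, the kinase gene Pbk (1.05, p = 0.0265), securin Pttg1 (0.75, p = 0.0397) and the spindle kinase Aurka (0.43, p = 0.0365). Over all probe sets 1.76% were higher at that threshold. The mean level of the list was 6.88, 7.45, 6.65 and 7.04 in high 1 to 4, 6.49, 6.41, 7.21 and 5.88 in low 1 to 4, 7.58 in the left-out number and 5.14 to 5.51 in wild type. The groups overlapped through low 3, which had the least Cyp11a1 of all lesions and the second highest mitosis level of the 8 numbers. With the prefix as a block, and within either prefix, 0 of the 32 had an unadjusted p under 0.05, with medians of 0.53 to 0.55. Without low 3 the median was 0.72 and 27 of the 32 genes had an unadjusted p under 0.05, and without high 2 the median was 0.34 with 0 such genes. Genes of 1 list are read in the same 8 samples and are not replicates. The order over the 9 numbers was not that of Cyp11a1, since the left-out number was highest.

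Of 26 measured S phase and replication genes, 25 were above 0 with a median of 0.22, and 6 had an unadjusted p under 0.05. The 6 were Mcm3 (0.52), Mcm5 (0.56), Pcna (0.31), Rfc4 (0.45), Tk1 (0.29) and Cdt1 (0.28), which load or copy at the replication fork or make its nucleotides. Over all probe sets 1.76% were higher at that threshold and 1.04% were higher with no overlap. Of the 26, only Cdt1 had no overlap, at 6.65 ± 0.14 against 6.38 ± 0.15 (SD, n = 4 each). Its adjusted p from limma was 0.911. With the prefix as a block 1 of the 26 had an unadjusted p under 0.05, and within prefix 09 the count was 0.

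The gene mutated in MENX, Cdkn1b (10859254), was at 9.05, 9.35, 9.19 and 9.29 in high 1 to 4, at 9.14, 9.30, 9.22 and 9.55 in low 1 to 4 and from 8.65 to 9.11 in wild type. The array reads its mRNA and not the unstable protein, so it does not check the genotype. High and low differed by -0.08 (95% interval -0.33 to 0.17). Of the 6 CDK inhibitor genes measured, 0 had an unadjusted p under 0.05. Cdkn1c (p57) had the largest difference, 0.85 (-0.58 to 2.28), with values of 10.02, 8.62, 7.53 and 8.30 against 9.31, 7.80, 6.65 and 7.33, and it turned to -0.58 within prefix 08. Cdkn2c differed by -0.25 and Cdkn1a by 0.29.

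For the gonadotropin genes Cga and Lhb, both groups lay on the same side of wild type. Cga, the shared alpha subunit, ran from 13.73 to 13.86 in the high and from 13.71 to 13.77 in the low group, above the wild-type range of 12.44 to 13.23, with a difference of 0.06 (-0.10 to 0.22). These lesion values lay near the array's highest value of 14.09, where differences can read too small. Lhb was at 7.27, 7.13, 7.58 and 6.58 against 6.91, 7.91, 6.48 and 7.34, below the wild-type values of 8.39 to 10.16 in each lesion number. Fshb differed by -0.86 (-2.59 to 0.87), with high 3 at 9.93 and low 4 at 9.30 as the highest of their groups, and by 0.51 within prefix 08. Of 15 gonadotroph markers measured, 0 had an unadjusted p under 0.05 and the median was -0.02.

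Among hormone genes of the other cells of the gland, Pomc, Tshb and Gh1 ranged widely within each group and Prl did not. Pomc, the corticotroph and melanotroph hormone gene, was at 6.32, 8.22, 8.89 and 11.15 in high 1 to 4 and at 7.15, 8.79, 6.80 and 7.56 in low 1 to 4, against 11.21 to 12.48 in wild type. High 4 stood near wild type, and Pomc differed by 1.07 (-0.95 to 3.09) overall and by 3.44 within prefix 09. With the prefix as a block it was 2.05 higher (unadjusted p = 0.0405 from limma). The 8 markers of that list had a median of 0.16, and their mean level ran from 7.63 to 8.50 in the high and from 7.52 to 8.09 in the low group. Tshb ran from 5.19 to 9.96 and from 5.14 to 10.11, Gh1 from 11.42 to 13.55 and from 10.57 to 13.42, and Prl from 13.64 to 13.86 and from 13.71 to 13.87. Prl, at 13.58 to 13.84 in wild type, lay near the array's highest value of 14.09, where differences can read too small. Its narrow range therefore cannot say whether Prl mRNA was alike in these samples. Pcsk2 belongs to the corticotroph and melanotroph list as well as to the granule list, and the part of these cells in its difference was not tested.

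Among 16 pericyte, fibroblast and matrix markers 0 were called, with 12 above and 4 below 0 and a median of 0.17. In 2 the unadjusted p from limma was under 0.05 with no overlap. They were Tagln, an actin-binding protein of smooth muscle (0.63, p = 0.0143), and Pdgfra, a receptor of fibroblasts (0.24, p = 0.0271). Over all probe sets 1.76% were higher at that threshold and 1.04% were higher with no overlap. The mean level of the list was 7.42, 7.49, 7.37 and 7.96 in high 1 to 4. It was 7.21 to 7.54 in the low and 7.21 to 7.68 in the wild-type group, so only high 4 lay above the low range. Myl9 in the ranking above is a gene of the same smooth muscle apparatus, and the part of these cells in its difference was not tested. For macrophage markers the ranges were 7.02 to 7.38 and 6.67 to 7.53, for endothelial markers 7.39 to 7.58 and 6.95 to 7.75, and for T, NK and B cell markers 5.05 to 5.47 and 5.22 to 5.29.

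Cyp11a1 is itself a gene of the adrenal cortex and gonads, so markers of those tissues were read beside it. Of 15 measured markers 0 had an unadjusted p under 0.05, 11 were above and 4 below 0, and the median was 0.09. The mean level of the list ran from 5.47 to 5.72 in the high, from 5.36 to 5.57 in the low and from 5.21 to 5.52 in the wild-type group. Members given above differed by 1.15 (Cyp11b2), 0.50 (Star) and -0.32 (Cyp11b1). The ACTH receptor gene Mc2r was at 5.50 ± 0.34 against 5.42 ± 0.25, and Cyp17a1 at 4.88 ± 0.15 against 4.79 ± 0.18 (SD, n = 4 each), both as in wild type at 5.43 ± 0.23 and 4.83 ± 0.20 (SD, n = 5).

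The lesion with the most Cyp11a1 stood apart from the other lesions of its rat. In lesion 1 of high 2, Star was at 9.62 against 6.70 and 6.96 in lesions 2 and 3, Fdx1 at 9.02 against 7.48 and 7.98, and Mrap, a partner of the ACTH receptor, at 8.53 against 6.01 and 6.19. Lhcgr, at 5.35 against 3.88 and 3.62, and Fshr, at 4.49 against 3.91 and 4.02, were also higher there. Mc2r, at 5.26 against 5.31 and 5.15, and Cyp17a1, at 4.66 against 4.75 and 4.70, were not higher there, and neither was Nr5a1, at 8.01 against 7.88 and 8.13. The mean level of the 15 adrenal cortex and gonad markers was 6.08 against 5.49 and 5.61. In this lesion 97 of 29213 probe sets were at least 2 log2 units above the mean of the other lesions and 24 at least 2 below, with no test since it is 1 array. The largest differences, picked after their values were seen, were those of Fabp6 (11.36 against 5.10), an ileal bile acid binding protein, Svs5 (10.09 against 5.16), a seminal vesicle protein, the B cell chemokine Cxcl13 (9.55 against 4.66), the leukocyte antigen Cd52 (9.72 against 4.91) and the aldo-keto reductase Akr1b8 (9.51 against 5.27). Without this lesion high 2 had a mean Cyp11a1 of 9.20 and stayed in the high group, 0 probe sets were called, Cyp1b1 differed by 1.81 (p = 0.000544) and Star by 0.27.

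**Figure D5:**
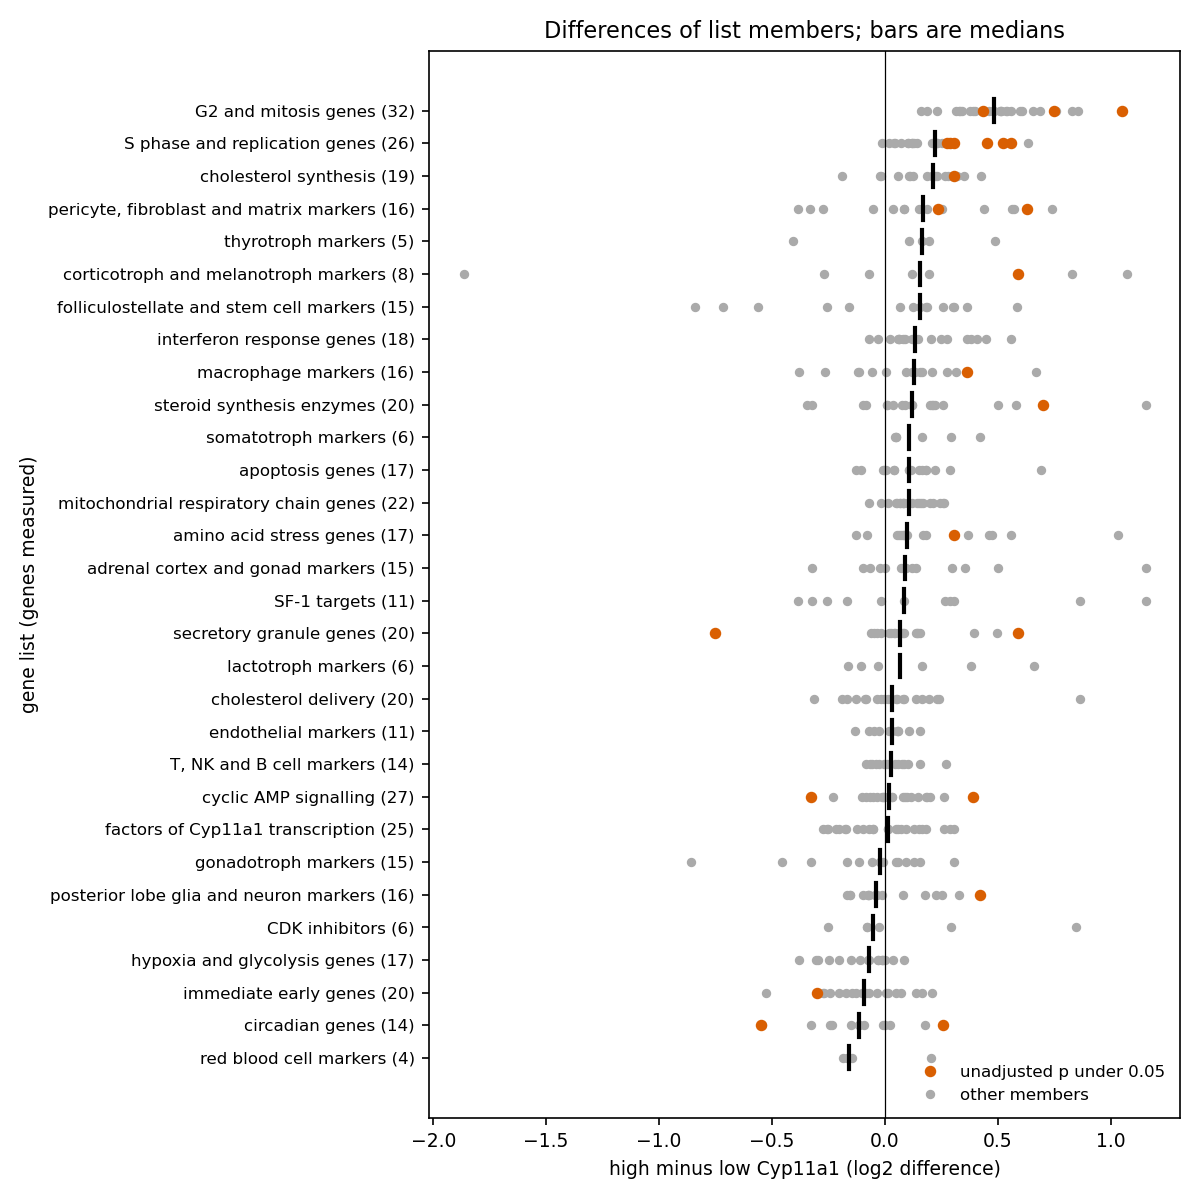
High minus low log2 difference of each member of 30 gene lists, with orange points for unadjusted p-values under 0.05, grey points for the other members and black bars at the list medians. All 32 G2 and mitosis genes lie to the right of 0 with a median of 0.48, while the medians of the other lists run from -0.16 to 0.22.

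Over all 30 lists, 444 genes were measured, 0 were called, and 23 (5.18%) had an unadjusted p under 0.05, of which 19 were higher and 4 lower. The share over all probe sets was 5.12%. The list medians ran from -0.16 for red blood cell markers to 0.48, with 23 above and 7 below 0. Hypoxia and glycolysis genes (15 of 17 below 0, median -0.07) and circadian genes (11 of 14 below 0, median -0.11) leaned the other way, the latter with the clock gene Per3 at -0.55 (p = 0.0360) and Cry1, another clock gene, at 0.26 (p = 0.0357). Mitochondrial respiratory chain genes had 20 of 22 above 0 at a median of 0.11, amino acid stress genes 15 of 17 at 0.10, and interferon response genes 16 of 18 at 0.13. Within prefix 08 the respiratory chain genes turned, with 1 of 22 above 0 and a median of -0.20, and with the prefix as a block 13 of 22 were above 0 at 0.01. The interferon value rested in large part on high 2, since 11 of 18 were above 0 at a median of 0.04 without high 2 and 10 of 18 at 0.01 without its lesion 1.

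As a description of likeness, the named probe sets with the highest Pearson correlation to Cyp11a1 over the 9 numbers were Krt9 (0.93), Dbr1, Pm20d2, Acly (0.90), Capns1, Mypop, Fahd2a, Spink13, B3gnt7 and Cdhr1 (0.88). Acly, ATP citrate lyase, which makes cytosolic acetyl-CoA, was at 10.25, 10.45, 10.60 and 10.34 in high 1 to 4, 10.24 in the left-out number and 10.18, 10.14, 10.06 and 10.11 in low 1 to 4. Krt9 spanned only 5.77 to 5.95 over the 8 high and low numbers. The lowest correlations were those of Lmntd2 (-0.93), Stath, Or14c40, Or5p53 and Frzb (-0.91). Stath, the olfactory receptors and, among the highest correlations, Spink13 were at levels under 4, near the lower end of the array's scale of 2.01 to 14.09. These genes are the extremes picked from all probe sets with 1 gene symbol. That choice, the number of points and low 3, far below the others in Cyp11a1, limit these values.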

How the data were processed

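RNA of 21 samples was hybridised to 1-colour Affymetrix Rat Gene 1.0 ST arrays. The authors made gene-level values with RMA in Affymetrix Expression Console (background correction, sketch-quantile normalization and median polish, versions not given in the sources used here) and deposited them on the log2 scale. Scanner values were not used here. Quantile normalization makes the arrays' distributions alike, so a shift shared by most genes would be lost, and it leaves folds near background or saturation too small. Precision depends on how many arrays there are. Of 29214 probe sets, 15310 carried 1 gene symbol, 323 several (not named), 183 were named only through a supplementary table of the study, and 13398 had none.

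Lesions were averaged by sample number. The labels give 9 such numbers and the study 11 rats, so whether a number is always 1 rat is not certain. The rule on Cyp11a1 then formed the groups. limma 3.58.1 in R 4.3.3 fitted high against low on 8 values, with 6 residual and 2.96 prior degrees of freedom and Benjamini-Hochberg adjustment over 29213 probe sets. An adjusted p under 0.05 made a call. The script was tested on simulated data. Intervals are unadjusted. Named genes were the 15 with 1 symbol in each direction with the smallest p and no overlap (none being called), members of the steroid, cholesterol delivery, SF-1 and Cyp11a1 factor lists with an unadjusted p under 0.05 or set by name, the CDK inhibitor and hormone genes, and the highest and lowest correlations. Lists used 1 probe set per gene, that with the highest mean over all arrays. Alternatives were each number left out, the prefix as a block or each prefix alone, sex, age, lesions as separate samples, wider fits, other cuts, a filter, renormalization, other variance models, the methods' t-test and other thresholds. The members and lists were chosen with earlier results of these data known. Promoters and mature microRNAs came from RefSeq (GRCr8). Tables were made in Python 3.11.15 with pandas 2.3.3.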

Additional observations from a re-analysis of the deposited data

Results flagged for a closer look

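In 9 of 195 groups of 4 or 5 numbers tested over the named genes (4.62%), 1 number lay far from the others by Dixon's criterion. For unselected groups chance gives this in about 1 of 20. The named genes were partly chosen for groups without overlap or for correlation with Cyp11a1, so that share is no benchmark for them. Low 3 accounted for 5 of the 9. Its Cyp11a1 was 5.89, against 7.50 to 7.51 in the other low numbers, its Capns1 7.28 against 7.44 to 7.45, its B3gnt7 5.98 against 6.29 to 6.31, its Stath 3.22 against 3.07 to 3.09 and its Or14c40 3.65 against 3.46 to 3.48. Cyp11a1 itself formed the groups, so its flag is a description and no test. The last 4 of these genes were chosen for their correlation with Cyp11a1, to which low 3 contributes. Without low 3 no probe set was called, and the median of the G2 and mitosis genes was 0.72 in place of 0.48.

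In low 2, Fdxr was 7.92 against 8.76 to 8.82 in the other low numbers. In high 1, Nr5a1 was 8.36 against 7.96 to 8.01 in the other high numbers, with the same 8.36 in both of its lesions. In high 2, Frzb was 5.78 against 5.90 to 5.92. Among the wild-type pituitaries, Star was 5.52 in 1 female of prefix 08, against 5.74 to 5.82 in the others.

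The difference between high and low was itself compared between the sexes and between the prefixes with an interaction term in limma. For sex 0 probe sets were called (smallest adjusted p = 0.327, with 2043 at an unadjusted p under 0.05, 6.99%). For prefix 1 was called, Slc26a7 (10875581, adjusted p = 0.0476 from limma), with 2000 at an unadjusted p under 0.05 (6.85%). Each fit rests on groups with 1 number.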

How the results depend on the processing

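At an adjusted p under 0.05, 0 probe sets were called in either direction under every alternative run except 2. With all 14 values in 4 groups, a fit that also uses the spread of wild type, 1 was higher (Cyp1b1). Over the fits that left out 1 number, 0 were higher and 0 to 2 were lower, the 2 being unnamed probe sets called without high 4 (adjusted p = 0.0272 and 0.0469 from limma). At an unadjusted p under 0.05 the counts were 514 higher and 981 lower, and moved from 374 (without low 4) to 1112 (without low 1) and from 590 (without low 4) to 1912 (without low 1) over the same fits; without high 4 the higher count was 805, without high 1 and high 2 the lower counts were 615 and 591. The higher count was 892 within prefix 08, 874 in females alone, 1295 with lesions as independent samples, 252 among probe sets above the median level and 1232 with array weights. The lower count was 533 with the prefix as a block, 607 within prefix 09, 1993 with lesions as independent samples, 436 with 14 values in 4 groups, 449 above the median level and 2246 with array weights. The fits that dropped the low lesion above the cut and the highest lesion were added after seeing the data and called 0. Over 28 alternatives, 16 of the 64 named genes, 30 of which were chosen for groups that do not overlap, changed sign in 48 of 1776, and 19 of the 30 list medians in 85 of 837. The medians that changed sign included those of the SF-1 list and cholesterol synthesis but not of the G2 and mitosis or S phase lists. The cause of these moves was not tested. No paired analysis was possible because the rule put each sample number, with all its lesions, in 1 group. With 4 numbers a group, limits are set by their number, not by the arrays.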
